A study of Macaca fascicularis with 1862 samples.

Results

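The cells described here are those that the authors named EXMC or extraembryonic mesoderm in cultured embryos of the cynomolgus monkey (Macaca fascicularis). They were chosen by the name in the deposited table alone. They numbered 452 of 1862 cells, or 24.3% (95% interval 22.3 to 26.3). EXMC cells made up 59.96% of them and extraembryonic mesoderm cells 40.04%. EXMC is not spelled out in the sources used here, and by usual use it stands for extraembryonic mesenchyme. All cells were wild type and from embryos cultured in vitro, with no treatment named, and they fall into 8 groups by embryonic day, from E16 to E25. Per the labels' protocols, embryos were made by sperm injection and cultured on from the blastocyst. Extraembryonic tissue was dissected off before the remaining embryonic body was dissociated, and single cells were picked by hand. By these protocols, the shares below are shares of cells that were left after dissection and then picked. Extraembryonic types are still listed, such as trophoblast cells, which build the placenta, at 81.3% of E20 and 78.2% of E24 cells. How far the dissection shaped the shares was not tested.

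Extraembryonic mesoderm is the loose tissue that comes to line the yolk sac, the amnion and the chorion. It forms the connecting stalk, the core of the placental villi and the first blood vessels, and the yolk sac wall carries the first blood islands. In primates part of this tissue is present before the primitive streak, and its sources are under study. Mesenchyme is a name for loosely arranged cells of this kind, so both names describe related tissue. The table holds no expression or methylation value, so neither name could be checked against marker genes. The names are used here as the authors gave them. How they set the types apart is not stated in those sources.

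Sample titles begin with the word Embryo and a number. That number appears to be the code of the cell type, 1 for EXMC and 9 for extraembryonic mesoderm, and was not read as an embryo. No other label names an embryo, animal or culture for a cell, so each day is 1 sample and days were compared without a test. Shares carry exact (Clopper-Pearson) 95% binomial intervals, which cover counting error only. Cells of 1 embryo are not independent, so differences between embryos are not in these intervals. Each cell also has an RNA plate, read from the RNA identifier without its well number, and a DNA batch, named in the sample title. There were 44 plates with 7 to 81 listed cells, each of 1 day, lettered here within a day in the order of their identifiers. The 21 DNA batches fall into a first series of 1156 cells, which ends with batch 13, and a second one of 706 cells, which starts with batch 14. The second series held few of the cells described here, 53 of 706 or 7.51% (5.67 to 9.70), against 34.5% (31.8 to 37.3) in the first, and what led to this was not tested.

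EXMC cells outnumbered extraembryonic mesoderm cells on 5 of the 8 days, and extraembryonic mesoderm cells outnumbered EXMC cells on 3, E18, E20 and E22. Over all days there were 1.497 EXMC cells for each extraembryonic mesoderm cell, an EXMC share of 59.96% of both types (55.3 to 64.5). That value hides opposite days. E16 was almost purely EXMC, with 100 EXMC and 3 extraembryonic mesoderm cells. E22 was almost purely extraembryonic mesoderm, with 11 EXMC cells beside 10.2 times as many of extraembryonic mesoderm. After E22 EXMC led again, with 41 to 7 at E23, 37 to 1 at E24 and 20 to 2 at E25.

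In shares of both types, EXMC stood at 97.1% at E16 (91.7 to 99.4). At E18 it was 28.6% of only 7 cells, with an interval from 3.67 to 70.96 that sets almost no limit. E20 had 17 EXMC and 25 extraembryonic mesoderm cells, which is 40.5% EXMC (25.6 to 56.7), and E21 had 43 and 26, which is 62.3% (49.8 to 73.7). Both intervals include 50%, so the counts do not settle which type was the more frequent on these days. With every plate given the same weight, E21 stood at 49.6%. E22 was at 8.94% EXMC (4.55 to 15.4), which is a ratio of 10.2 with an interval from 5.48 to 20.98. E23 was at 85.4% (72.2 to 93.9). E24 was at 97.4% (86.2 to 99.9) and E25 at 90.9% (70.8 to 98.9).

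**Figure D1:**
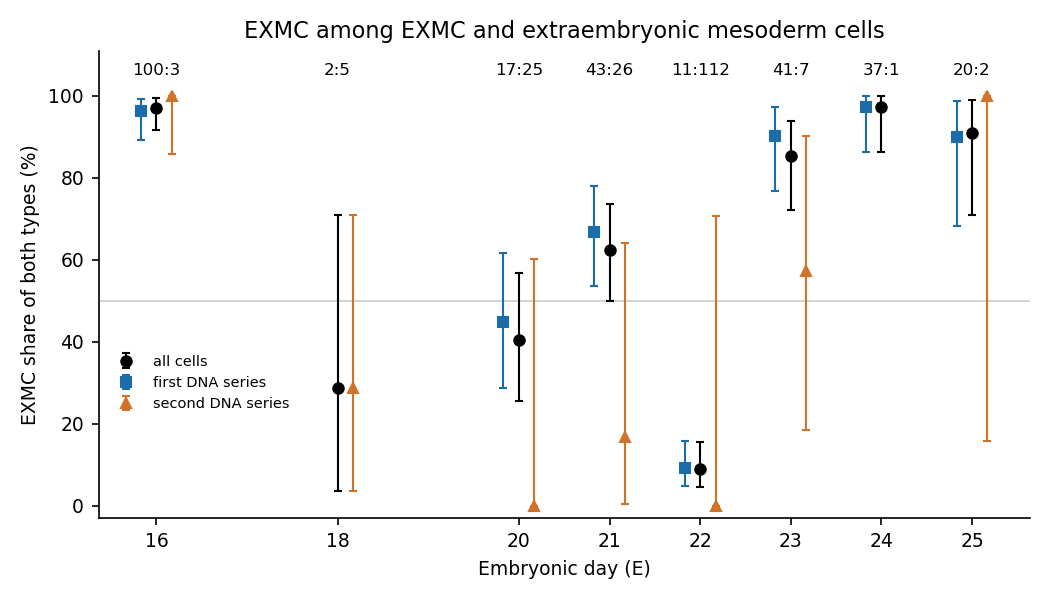
EXMC as a percentage of EXMC and extraembryonic mesoderm cells (vertical axis) by embryonic day (horizontal axis), for all cells (circles), the first DNA series (squares) and the second (triangles), with exact 95% binomial intervals as bars and the counts EXMC:extraembryonic mesoderm of all cells above. E22 lies at 8.94%, while E16, E23, E24 and E25 lie between 85.4% and 97.4%.

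Ordered by EXMC share, the days ran E22, E18, E20, E21, E23, E25, E16 and E24. The intervals of each pair of neighbours in that order overlap. Over all 28 pairs of days, 13 pairs of intervals overlap and 15 do not. E22 overlaps only E18, the day with 7 cells, and lies below the other 6 days. E16, E23, E24 and E25 overlap each other, and together held 15.2 EXMC cells for each of their 13 extraembryonic mesoderm cells, or 93.8% EXMC (89.7 to 96.7). These 4 days do not follow each other in time, since E18 to E22 lie between E16 and E23.

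Both types were spread unevenly over the days, mostly in different ways, although E21 gave similar parts of each. E16 gave 36.9% of all EXMC cells, and E21, E23 and E24 gave 15.9%, 15.1% and 13.7%. Extraembryonic mesoderm came mainly from 1 day, with 61.9% of its cells at E22, followed by 14.4% at E21 and 13.8% at E20. Only 1.66% of it came from E16. Because of this, the EXMC share over all days depends on which days are counted. It was 48.997% (43.6 to 54.4) without E16 and 79.03% (74.2 to 83.3) without E22.

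Set against all cells of a day rather than against each other, EXMC had E21 and E22 intervals that lay apart, while those of extraembryonic mesoderm overlapped. EXMC made up 31.2% of E21 cells (23.6 to 39.6) and 2.64% of E22 cells (1.33 to 4.68). Extraembryonic mesoderm made up 18.8% of E21 cells (12.7 to 26.4) and 26.9% of E22 cells (22.7 to 31.5). Against E20 it was the other way round over both DNA series. EXMC made up 6.49% of E20 cells (3.82 to 10.2), which overlaps E22, and extraembryonic mesoderm 9.54% (6.27 to 13.8), which lies below E22. Over both series, the low EXMC share among both types at E22 thus goes with a low EXMC share of all cells when set beside E21. Set beside E20, it goes with a high extraembryonic mesoderm share of all cells. In the first series alone, the E20 and E22 intervals lay apart for each type. EXMC made up 11.3% of E20 cells there (6.74 to 17.5) and 3.47% of E22 cells (1.74 to 6.12). Extraembryonic mesoderm made up 14% (8.88 to 20.6) and 34.4% (29.2 to 39.9). In the second series, which held few members, the E20, E21 and E23 intervals of each type all overlapped those of E22. At E23 both types differed from E22 beyond counting error over both series. EXMC was at 15.6% of E23 cells (11.5 to 20.6) and extraembryonic mesoderm at 2.67% (1.08 to 5.43). The rest of each day differed too, as trophoblast cells, the outer layer that builds the placenta, were 81.3% of the E20 cells (76.04 to 85.8) but 4.81% of those of E22 (2.96 to 7.33). A share of all cells falls when other types are picked more often, while the ratio of both types does not depend on the number of other cells. The many trophoblast cells of E20 thus lower its shares of both types against those of E22. Shares without trophoblast cells were not computed, so the E20 comparison holds only for shares of all cells.

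RNA plates of the same day gave the same order on E22, E23, E24 and E25 and different orders on E16, E18, E20 and E21. Members were listed on 41 of the 44 plates, with 1 to 42 on a plate. EXMC led on 24 plates, extraembryonic mesoderm on 16, and 1 plate had equal numbers. Both types were listed together on 23 plates.

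**Figure D2:**
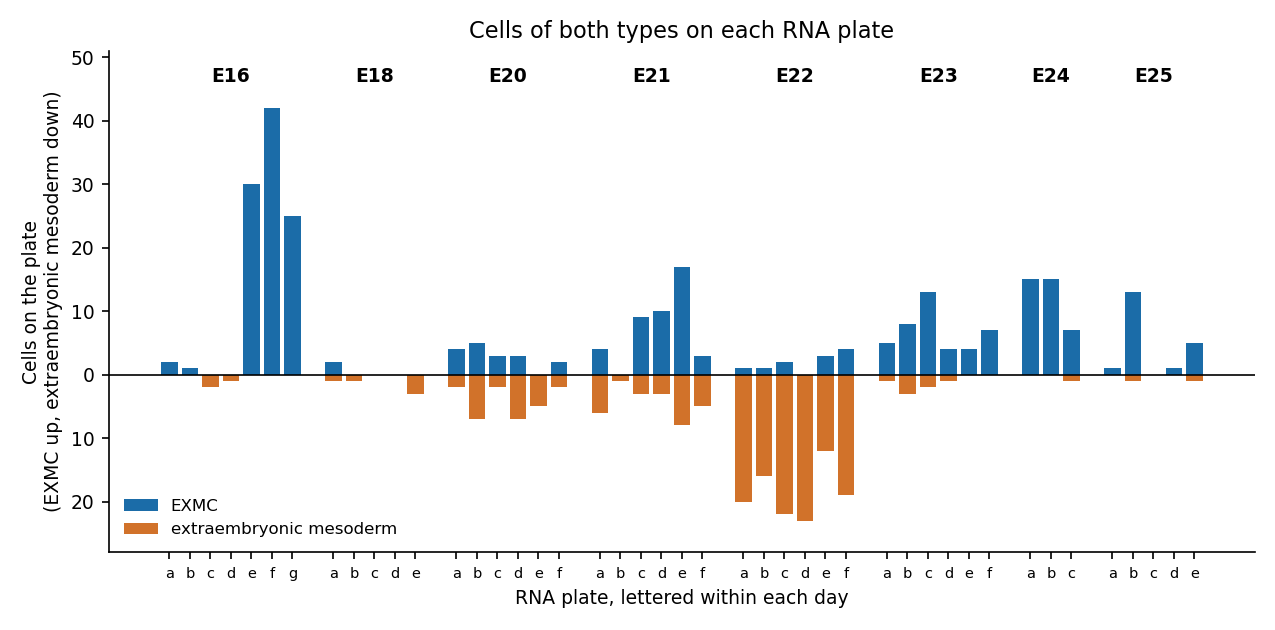
Cells of each type on each of the 44 RNA plates (horizontal axis, lettered within each day), with EXMC counts drawn upward and extraembryonic mesoderm counts downward from 0. All 6 E22 plates extend mainly downward, with 12 to 23 extraembryonic mesoderm cells each, and the 6 E23 and 3 E24 plates mainly upward.

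At E22 extraembryonic mesoderm led on 6 of 6 plates. Plate a had 1 EXMC and 20 extraembryonic mesoderm cells, plate b 1 and 16, and plate c 2 and 22. Plate d had 0 and 23, plate e 3 and 12, and plate f 4 and 19. The EXMC share lay between 0% and 20% of both types. Taken as 3 cells of the total, the count of 0 on plate d allows a share of up to 13.04%, and the exact interval reaches 14.8%. These plates held 55 to 81 listed cells each, so the low EXMC count did not come from a single plate.

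E23 had EXMC ahead on 6 of 6 plates, with a share from 72.7% to 100%. Its largest numbers were 13 EXMC and 2 extraembryonic mesoderm cells on plate c and 8 and 3 on plate b. At E24, plates a and b had 15 EXMC cells each and no extraembryonic mesoderm cell, which allows up to 20% on each, and plate c had 7 and 1. At E25 the 4 plates with members all had more EXMC, led by plate b with 13 EXMC cells and 1 extraembryonic mesoderm cell. On E22 to E25 together, no plate went against the order of its day.

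E16 held 2 kinds of plate, which also differ in DNA batch. Plates a to d were in batches 1 to 3, and plates e, f and g in batches 8, 9, 10, 14 and 18. Kind of plate and DNA batch can therefore not be told apart here. Plates e, f and g had 30, 42 and 25 EXMC cells and no extraembryonic mesoderm cell. That is 97 to 0, and the count of 0 allows an extraembryonic mesoderm share of up to 3.09% of both types. Plates a to d were 85.2% to 97.4% PS and derivative, which by usual use are cells of the primitive streak and its descendants, and held only 6 members, 2.91% of their cells (1.08 to 6.23). Those were 3 EXMC and 3 extraembryonic mesoderm cells, an EXMC share of 50% with an interval from 11.8 to 88.2. All 3 extraembryonic mesoderm cells of E16 therefore came from plates where streak cells led, 2 on plate c and 1 on plate d, neither of which had an EXMC cell. The E16 value of 97.1% describes the 3 plates rich in EXMC and says little about the other 4.

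E20 plates differed in order, although their numbers were small. EXMC led on plates a and c, with 4 to 2 and 3 to 2 cells, plate f had 2 of each, and extraembryonic mesoderm led on the other 3. Among these, plate b had 5 EXMC and 7 extraembryonic mesoderm cells, plate d 3 and 7, and plate e 0 and 5. All 6 plates had extraembryonic mesoderm cells. The intervals of the 6 plates overlap each other.

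E21 plates split as well. EXMC led on plates c, d and e, with 9 to 3, 10 to 3 and 17 to 8 cells. Extraembryonic mesoderm led on plates a, b and f, with 4 EXMC to 6 extraembryonic mesoderm cells, 0 to 1 and 3 to 5. Plates a and b carry another first part in their RNA identifiers than plates c to f. The EXMC share was 36.4% of 11 cells (10.9 to 69.2) in the first of these sets and 67.2% of 58 cells (53.7 to 78.99) in the second, with overlapping intervals. At E18 members were on 3 of 5 plates, with 2 EXMC cells and 1 extraembryonic mesoderm cell on plate a, 0 and 1 on plate b, and 0 and 3 on plate e. Both EXMC cells of that day thus came from 1 plate.

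The E22 value could be set beside other days within the same technical unit. Of the 7 sets of RNA identifiers, 2 held more than 1 day. The set with the E22 plates also had 39 EXMC and 19 extraembryonic mesoderm cells at E21, 7 and 1 at E24, and 5 and 1 at E25. Its shares ran from 67.2% at E21 to 8.94% at E22 (4.55 to 15.4), 87.5% at E24 (47.3 to 99.7) and 83.3% at E25 (35.9 to 99.6), so the E22 interval lay below the other 3 within the set. The remaining set with several days held 4 and 7 at E21, 30 and 0 at E24, and 15 and 1 at E25. E16, E18, E20 and E23 have sets of their own, so for them day and identifier set cannot be told apart.

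Within DNA batches of the first series the E22 share was also low. There 6 batches held members of E22 and of another day, which makes 9 comparisons, and the E22 share was lower in 9 of 9. These comparisons are not independent, since batches 4, 5 and 8 each enter 2 times with the same E22 cells. E22 was also the lowest day over these same cells, so the count is no separate support. Batch 4 had 1 EXMC and 19 extraembryonic mesoderm cells at E22 beside 9 and 2 at E21 and 3 and 1 at E23. Batch 5 had 0 and 23 at E22 beside 4 and 2 at E20 and 13 and 1 at E25. Each of these batches had its lowest EXMC share at E22. In batch 6 there were 1 and 14 at E22 and 15 and 0 at E24, and in batch 11 there were 2 and 22 at E22 and 7 and 1 at E24. Batch 7 had 3 and 12 at E22 beside 8 and 1 at E23. The smallest gap was in batch 8, with 4 and 19 at E22, 4 and 5 at E21, and 31 and 0 at E16. The differences ranged from -93.3 to -27.1 percentage points, and the intervals did not overlap in 7 of 9 comparisons. In the second series only batch 19 allowed such a comparison, with 0 EXMC and 2 extraembryonic mesoderm cells at E22, the same 0 and 2 at E21, and 1 and 0 at E23, and all these intervals overlap. Each of the 6 batches held the first-series members of 1 E22 plate, so plates and batches are the same units here.

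**Figure D3:**
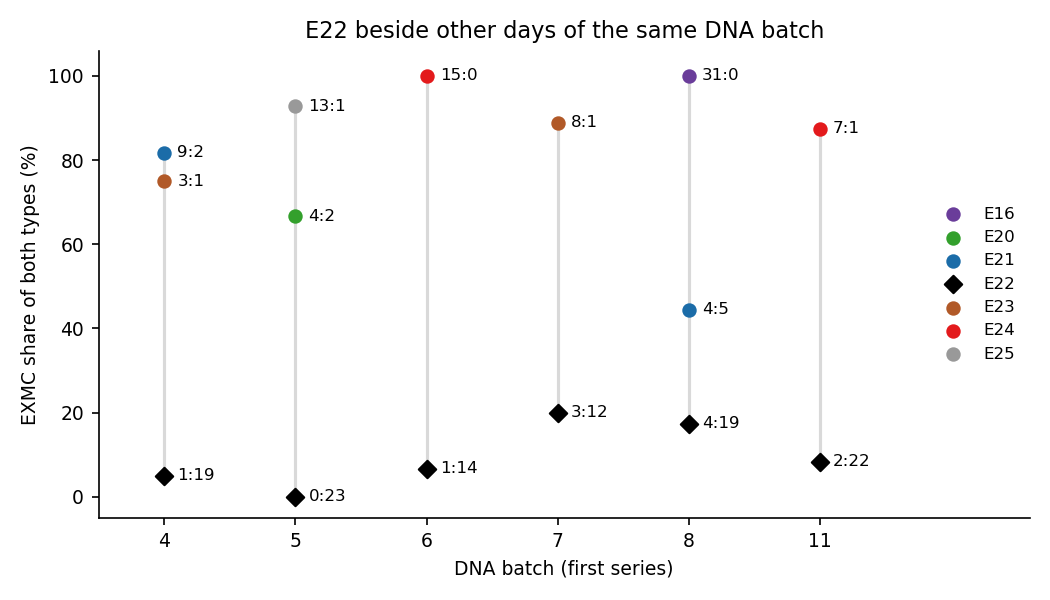
EXMC share of both types (vertical axis, percent) within each of the 6 first-series DNA batches that held E22 members and members of another day (horizontal axis). Diamonds are E22, circles are other days, and the numbers are EXMC:extraembryonic mesoderm cells, with every diamond at or below 20% and every circle at or above 44.4%.

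Both types were divided between the DNA series in nearly equal proportion. Of the EXMC cells 87.8% (83.3 to 91.5) were in the first series, and of the extraembryonic mesoderm cells 88.95% (83.5 to 93.1). For the 1410 cells of all other types together this was 53.7% (51.04 to 56.3), with single types from 23.5% for blood cells to 90.4% for PS and derivative (85.8 to 93.9). The last is as high as in the types described here. Accordingly the EXMC share of both types was 59.6% in the first series (54.7 to 64.5) and 62.3% in the second (47.9 to 75.2).

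Within single days the series looked less alike, on very few cells. At E20 the counts of EXMC and extraembryonic mesoderm were 17 and 21 in the first series and 0 and 4 in the second. At E21 they were 42 and 21 against 1 and 5, and at E23 they were 37 and 4 against 4 and 3. On these 3 days the EXMC share was lower in the second series, by values whose intervals overlap. E22 had 0 and 3 in the second series, against 11 EXMC cells and a share of 9.17% in the first. In contrast, the second-series members of E16 were 24 EXMC and 0 extraembryonic mesoderm, on plates where the first series had none of the latter either. With E16 set aside, the EXMC share was 50.6% of 320 cells in the first series (45.01 to 56.2) and 31.03% of 29 cells in the second (15.3 to 50.8). On the 31 plates with listed cells in both series, the second-series members were 29 EXMC and 14 extraembryonic mesoderm cells, where an equal division of each plate's members would give 34.8 and 8.23. E24 had no member in the second series, and E18 none in the first, so the ratio at E18 has no first-series value beside it.

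A separate type in the table is named mesoderm. By usual use this is the mesoderm of the embryo proper, the layer that gives muscle, skeleton, heart and kidney, which could not be checked here. Its days only partly matched those of extraembryonic mesoderm. Over both DNA series, the 2 types were highest at E22, with 1.38 mesoderm cells for each extraembryonic mesoderm cell. Both were on 6 of 6 E22 plates. Mesoderm counts on those plates ran from 15 to 39, and extraembryonic mesoderm was the more frequent of the pair on 2 plates. At E20, by contrast, there were 25 extraembryonic mesoderm cells and 1 mesoderm cell. Of the cells of these mesoderm types, extraembryonic mesoderm made up 96.2% at E20 (80.4 to 99.9), 55.3% at E21 (40.1 to 69.8) and 41.9% at E22 (35.96 to 48.1). E18 had 5 extraembryonic mesoderm cells and 20 mesoderm cells, a share of 20% (6.83 to 40.7). These values differ between the DNA series. In the second series, extraembryonic mesoderm was not highest at E22. Its share of all cells there was 10% at E21 (3.33 to 21.8) and 3.03% at E22 (0.629 to 8.60), with overlapping intervals. At E22 there were 1.03 extraembryonic mesoderm cells for each mesoderm cell in the first series, and 3 extraembryonic mesoderm and 49 mesoderm cells in the second. At E21 the order turned over, with 21 extraembryonic mesoderm and 6 mesoderm cells in the first series and 5 and 15 in the second. It did so at E23 on few cells, with 4 and 1 against 3 and 4, and all E18 cells are of the second series. At E16, E23, E24 and E25 both types were rare, with at most 7 cells of either on a day.

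**Figure D4:**
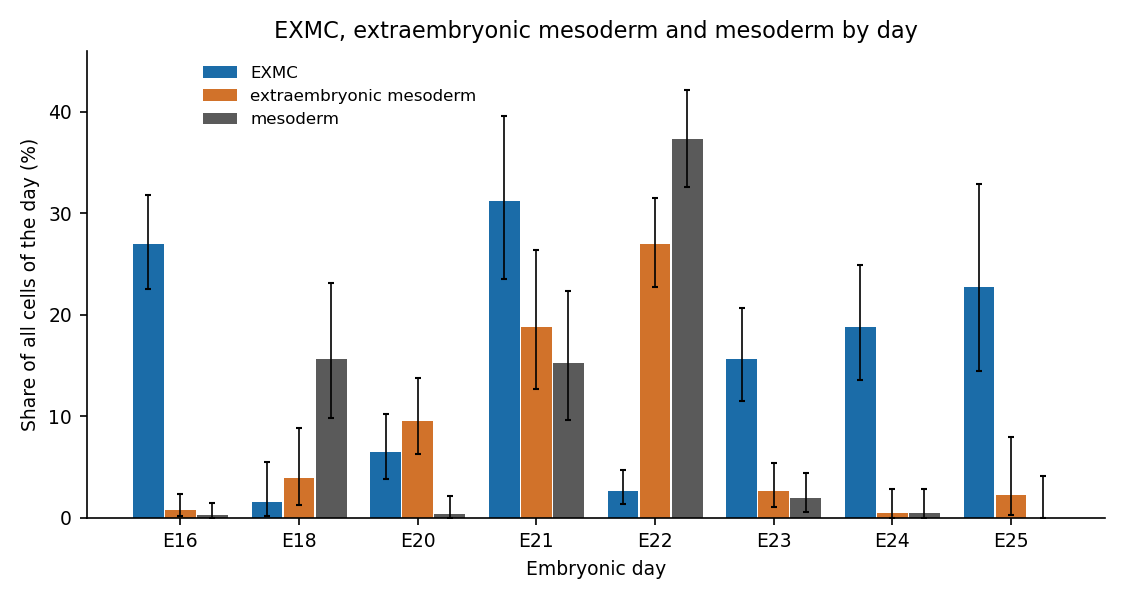
Share of all cells of each day (vertical axis, percent) that were EXMC, extraembryonic mesoderm or mesoderm, by embryonic day (horizontal axis), with exact 95% binomial intervals as error bars. Over both DNA series, extraembryonic mesoderm and mesoderm peak at E22, at 26.9% and 37.3%, where EXMC is at 2.64%.

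Blood cells, which in the embryo first form in the extraembryonic mesoderm of the yolk sac, numbered 17 in the table. They were on 13 plates, of which 11 also held extraembryonic mesoderm and 10 held EXMC. Among all 44 plates, 30 held extraembryonic mesoderm and 34 held EXMC. The days with most blood cells were E22 with 6, E20 with 5 and E23 with 4, of which E22 and E20 had more extraembryonic mesoderm and E23 more EXMC. E16, E21 and E24 had 0 blood cells, which allows shares of up to 0.809%, 2.17% and 1.52%.

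Members of either type were spread along the well numbers of their plates. EXMC wells ran from 2 to 96 with a median of 47, and extraembryonic mesoderm wells from 2 to 96 with a median of 42. At E22, the next well number was listed for 78 extraembryonic mesoderm cells and held the same type for 21 of them, or 26.9%. Over all E22 cells with a listed next well this was 24.1%. On E16 plates e, f and g, an EXMC cell was followed by another in 37 of 60 listed wells, or 61.7%, against 56 of 100, or 56%, after any cell. Other days went in both directions. At E23 an EXMC cell was followed by another in 4.35% of listed wells, against 12.03% after any cell, and at E24 in 11.1% against 17.4%. At E21 extraembryonic mesoderm was followed by its own type in 5 of 9 listed wells, or 55.6%, against 22.5% after any cell, and at E25 EXMC in 4 of 7, or 57.1%, against 26.1%. No order common to the days is seen in these counts, which were not tested.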

How the data were processed

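The assay was scChaRM-seq, in which the RNA, the methylation and the accessibility of the DNA are read from the same cell. The 1 file analysed here is the authors' deposited table, with 1862 lines, 3 text columns (RNA library, DNA library, cell type) and 0 numeric columns. Methylation, accessibility, expression and read depth were not analysed here. The submitters' processing notes list Bismark 0.7.6, SAMtools 0.1.18 and Trim Galore 0.4.4. The genome build, the method of naming types and the handling of doublets are not given in the sources used here.

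Every cell matched 1 sample by its DNA identifier, with 0 unmatched, and the day came from that sample's label. Table and sample title gave the same type for 1862 cells. No cell was filtered out. Counts and exact binomial intervals were computed in Python 3.11.15 with pandas 2.3.3 and SciPy 1.17.1, and a count of 0 was taken to allow 3 cells of the total. The limits given here for counts of 0 are lower than the upper ends of the exact intervals. No gene is named, since the table holds none. Every day was described, and plates or batches with at least 10 members were given singly; smaller ones named singly on E16, E18, E20, E21, E24 and E25, and in the comparison of batches, were added after their values were seen. Alternatives were restriction to a DNA series or to plates with cells in both series, equal weights for plates or batches, and leaving out each plate or batch. The cells, the comparisons and the alternatives were chosen with earlier results of these data known.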

Additional observations from a re-analysis of the deposited data

How the results depend on the processing

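Of 100 alternative values over 10 results, 75 stayed within the 95% counting interval of the reported share. Some of the 75 could not move, because they use the same members as the reported share. These are the second series at E18, the first at E24, and plates with cells in both series at E20, E22, E23 and E24. Others leave out only 1 plate or 1 batch, so the count of 75 is no measure of robustness. All values here are EXMC shares of both types unless said otherwise. In the second DNA series alone the share was 100% at E16 and E25, 0% at E20 and E22, 16.7% at E21 and 57.1% at E23, on 2 to 24 cells a day. E18 and E24 have members in 1 series only. E16 was at 100% on divided plates, on plates with at least 5 members, and without the plates mostly of PS and derivative, an alternative added after seeing the data. Each of these keeps only plates e, f and g, so they are not separate alternatives. With equal weights E16 was at 71.4% over plates and 75% over batches, since plates of 1 or 2 members then count as much as the largest. E21 was at 49.6% over plates and 47.5% over batches. Leaving out 1 plate or 1 batch brought E18 to 0% (plate a, batch 17) and E24 to 100% (plate c, batch 11), and moved no other day's share out of its interval. E22 stayed between 7% and 11% when 1 plate or batch was left out. The share over all days was 54.04% with equal batches and, in alternatives added after seeing the data, 48.997% without E16 and 79.03% without E22. Both types as a share of all cells came to 34.5% in the first series, 7.51% in the second, 29.5% on divided plates, 32.9% over plates with at least 5 members, and 21.95% without batch 8. Choosing plates by their number of members itself favours a high value of this share. No paired analysis was possible because the replicate numbers only count cells in accession order. Days that share a DNA batch or an RNA identifier set are set side by side in the report, as values with no test.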
